A study of Mus musculus with 4 samples.

Results

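The 10 genes Gbp2, Gbp3, Gbp4, Gbp7, Igtp, Irgm1, Irgm2, Iigp1, Tgtp2 and Ifi47 encode GTPases that cells make in response to interferon. They were taken by symbol from the 32285 genes counted in single cells sorted from B16bl6 melanoma, a mouse tumor line grown in the skin, and all 10 were found in both gene expression libraries. Their RNA was followed through 4 kinds of cells in 1 library of WT tumors and 1 library of VISTA-KO tumors. CD8 cells had at least 1 UMI (1 counted RNA molecule) of Cd8a or Cd8b1 and none of Cd4, conventional CD4 cells had Cd4 but no Foxp3, regulatory cells had both Foxp3 and Cd4, and Siglech cells had at least 2 UMIs of Siglech, a surface lectin of plasmacytoid dendritic cells.

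All mice were on a C57BL/6 background and homozygous for a floxed Vsir gene (Vsir fl/fl), which encodes the checkpoint protein VISTA. VISTA-KO mice also carried CD4-Cre, whose promoter is active while T cells of both the CD4 and the CD8 lineage develop, and WT littermates had no Cre. Both groups received a TRP2 peptide vaccine with CpG and R848 on day 3 after inoculation and 100 µg of antibody against CTLA-4 on days 4 and 8, so that no library shows the genes without vaccine or antibody. CpG and R848 are themselves ligands of Toll-like receptors. The mice were 6 to 8 weeks old, tumors were collected on day 18 after treatment, and the tumors of each genotype were pooled before CD4 and CD8 cells were sorted. The methods give 5 to 6 mice in a pool and a legend 6 to 8 tumors. A genotype therefore cannot be told apart from its pool and its library, no spread between mice is known, and no difference was tested. Levels are in CPM, the UMIs of a gene per 1000000 UMIs of all genes in the same cells. Intervals in brackets are exact 95% Poisson intervals of the counts, or exact binomial ones for ratios, and cover counting error only.

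Interferons act through receptors on the cell surface and the Janus kinases. Interferon gamma leads to factors that bind DNA at GAS elements, and type I interferons to a complex with STAT2 and IRF9 that binds ISRE elements. IRF1, itself an interferon gamma target, binds ISRE-like DNA as well. Guanylate-binding proteins (Gbp2, Gbp3, Gbp4 and Gbp7) and immunity-related GTPases (the other genes) gather on the membranes of vacuoles that hold intracellular pathogens and help to break them. Among the immunity-related GTPases, Igtp (also called Irgm3), Irgm1 and Irgm2 sit on the membranes of the cell's own organelles and keep the effector GTPases Iigp1, Tgtp2 and Ifi47 inactive there.

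The DNA just upstream of the genes is shown first, because GAS and ISRE are the elements through which the factors named above are known to act. RefSeq promoter windows of GRCm38.p6, each from 250 bases before to 50 bases after a gene's start, were on hand for 8 of the 10 genes and not for Gbp4 or Iigp1. They were searched on both strands for GAS, spelled TTCNNNGAA, and for ISRE, taken as GAAA, any 2 bases and GAAA again. The windows of 4 genes held a GAS and those of 7 held an ISRE, against 9.55% and 3.99% of all 27025 genes with windows. In 4 genes a window held both, against 0.540%. The window of Ifi47 held neither. In Igtp, Irgm2 and Tgtp2 the GAS was followed by the ISRE after exactly 2 bases, as the motifs in capitals show:
Igtp: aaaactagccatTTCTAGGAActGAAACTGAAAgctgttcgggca
Irgm2: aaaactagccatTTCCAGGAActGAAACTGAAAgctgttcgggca
Tgtp2: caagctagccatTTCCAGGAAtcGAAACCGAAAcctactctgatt
The first stretch lies on the plus strand at chr11:58199499-58199543, from 57 bases before the gene's start, the second on the plus strand at chr11:58214890-58214934, from 87 bases before it, and the third on the minus strand at chr11:49064261-49064305, from 93 bases before it. Only 5 of all 32851 windows of these genes (0.0152%) held this arrangement, and the other 2 belonged to Tgtp1 and Gm12185, which are further immunity-related GTPases. Such genes lie in clusters of related copies, so the shared letters are not independent of each other.

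The remaining 4 windows with motifs held them in other arrangements, with a motif read on the opposite strand printed in capitals as it stands:
Irgm1: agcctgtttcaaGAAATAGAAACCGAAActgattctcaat
Gbp2: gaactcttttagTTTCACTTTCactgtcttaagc
Gbp3: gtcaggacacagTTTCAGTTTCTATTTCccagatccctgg
Gbp7: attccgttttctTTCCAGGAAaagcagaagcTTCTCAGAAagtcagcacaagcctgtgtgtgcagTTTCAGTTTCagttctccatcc
Irgm1 (chr11:48871423-48871462, minus strand) and Gbp3 (chr3:142559987-142560026, plus strand) each held 2 overlapping ISREs, and Gbp2 (chr3:142620592-142620625, plus strand) held 1. Gbp7 (chr3:142530218-142530304, plus strand) held 2 GAS motifs and then an ISRE farther downstream. A match is a description of letters, and binding was not measured.

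After filtering, 10224 WT and 9946 VISTA-KO cells were left. The kinds held 5549 and 4350 CD8 cells, 1768 and 3048 conventional CD4 cells, 1528 and 1270 regulatory cells and 221 and 138 Siglech cells, and 13.4% and 12.7% of cells fell in no kind. Median UMIs per cell were near each other in the libraries except in regulatory cells, with 8838.5 in WT and 5939 in VISTA-KO. The libraries shared 145 cell barcodes. The kinds carried their markers but were not pure: Cd8a reached 373 CPM in conventional CD4 cells of WT and 191 in VISTA-KO, and 340 and 156 in regulatory cells, against 1044 and 1029 in CD8 cells. Siglech cells carried all 8 plasmacytoid dendritic cell markers, at 12777 and 14847 CPM in sum, together with Cd3e (401 and 210), and only 10 and 14 of them met no T cell rule. Melanoma transcripts stood at 10.2 CPM in CD8 cells of WT and 194 in VISTA-KO, at 5.57 and 189 in regulatory cells, and the other way round at 204 and 15.7 in conventional CD4 cells. Vsir itself was at 112 CPM in CD8 cells of WT [108, 115] and 111 in those labelled VISTA-KO [107, 115]. Counts per gene do not tell which exons the reads came from, so this level checks neither the deletion nor the labels, and VISTA-KO throughout means the library so labelled.

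Igtp and Irgm2 had the largest ratios of VISTA-KO to WT among the 10 GTPase genes in each T cell kind. The counting interval of the ratio lay above 1 for all 10 in CD8 and regulatory cells and for 6 in conventional CD4 cells. The share of all genes with such an interval was not computed, so these counts do not set the 10 genes apart. Small ratios pass at this depth, such as that of Ifi47 in CD8 cells, 1.05 [1.02, 1.09]. Together the 10 genes made up 922 CPM in CD8 cells of WT [912, 932] and 1075 in VISTA-KO [1063, 1088], a ratio of 1.17 [1.15, 1.18]. The sum in conventional CD4 cells was 1004 in WT [986, 1024] and 1158 in VISTA-KO [1142, 1175], a ratio of 1.15 [1.13, 1.18]. Regulatory cells had the widest gap, from 1079 [1064, 1094] to 1416 [1392, 1440] and a ratio of 1.31 [1.28, 1.34]. In Siglech cells the sum was 583 in WT [554, 613] and 669 in VISTA-KO [627, 713].

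**Figure D1:**
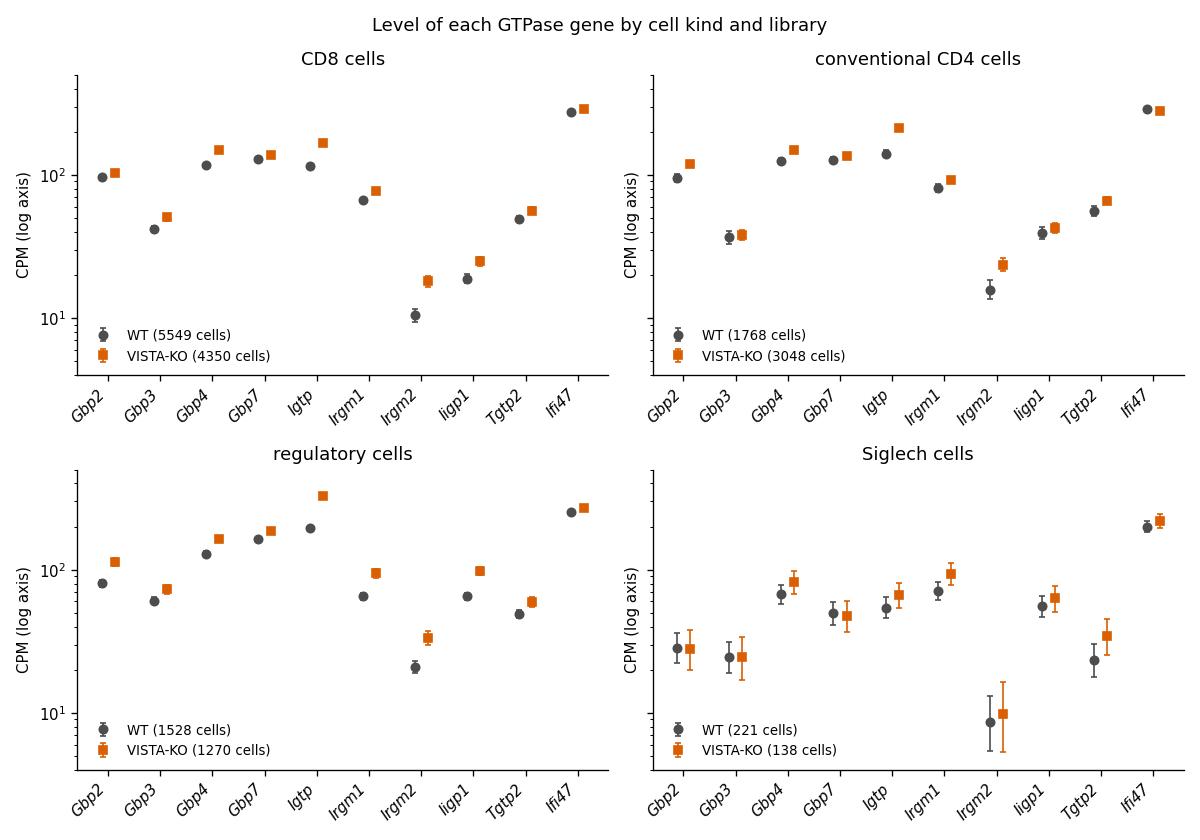
Level of each of the 10 GTPase genes in CPM (log axis) in the 4 cell kinds, with WT as grey circles and VISTA-KO as orange squares; bars are exact 95% Poisson intervals and many are shorter than the symbol. In regulatory cells all 10 orange squares lie above their grey circles, with Igtp at 195 and 328. In Siglech cells the bars of the libraries overlap for every gene.

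Ratios of VISTA-KO to WT were put on the log2 scale after adding 5 CPM to both levels, and a gene was counted as higher from 0.32 up and as lower from -0.32 down, a fixed fold and not a test. In CD8 cells 4 of the 10 genes were higher (Igtp, Irgm2, Gbp4 and Iigp1) and none lower. Of the 6083 genes with at least 20 CPM in a library, 2.58% were higher and 1.64% lower. Irgm2 was below that minimum in both libraries, and Iigp1 met it only in VISTA-KO, where it was higher (18.9 and 24.9 CPM). In regulatory cells 6 were higher (Igtp, Irgm2, Iigp1, Irgm1, Gbp2 and Gbp4), and none lower, beside 6.45% of genes higher and 5.64% lower. Only Igtp and Irgm2 were higher in conventional CD4 cells, beside 3.68%. Irgm2 met the minimum there only in VISTA-KO (15.8 and 23.6 CPM). Siglech cells had 2 higher genes (Tgtp2 and Irgm1) beside 10.4%. The median log2 ratio of the 10 genes was 0.22 in CD8, 0.20 in conventional CD4 and 0.40 in regulatory cells, beside -0.02, -0.04 and -0.01 over all genes tested. Igtp and Irgm2 alone of the 10 passed this limit in all 3 T cell kinds. So did 0.989% of the genes with at least 20 CPM in a library in each kind, a set without Irgm2. Over the alternatives run, the Irgm2 log2 ratio went as low as 0.13 in conventional CD4 and 0.19 in regulatory cells. Tgtp2, whose window holds the same 2-base arrangement as those of Igtp and Irgm2, had log2 ratios of 0.17, 0.23 and 0.25 in the 3 T cell kinds. The part of the promoters in the ratios was not tested.

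The gap in conventional CD4 cells depended on how the cells were chosen. Without the cells that also held a Cd8a or Cd8b1 UMI, 1190 WT and 2410 VISTA-KO cells were left. The log2 ratio of the sum then went from 0.20 to 0.07. Igtp alone of the 10 genes stayed past the limit (0.35), beside 3.69% of all genes higher. Of the 10 genes 5 were above 0, with a median of -0.01 beside -0.05 over all genes tested. The share of all genes above 0 was not computed. With each cell thinned to 2000 UMIs the log2 ratio of the sum was 0.09. In CD8 cells the log2 ratio of the sum lay between 0.17 and 0.26 and in regulatory cells between 0.31 and 0.43 over all the alternatives run. Regulatory cells, whose depth differed most, gave 0.32 after thinning and 0.33 without cells that held Cd8a or Cd8b1. That last step left 734 of 1528 regulatory cells in WT and 895 of 1270 in VISTA-KO. Without cells that held 5 or more melanoma or macrophage UMIs the log2 ratio was 0.22 in CD8 and 0.38 in regulatory cells, near the values over all cells.

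**Figure D2:**
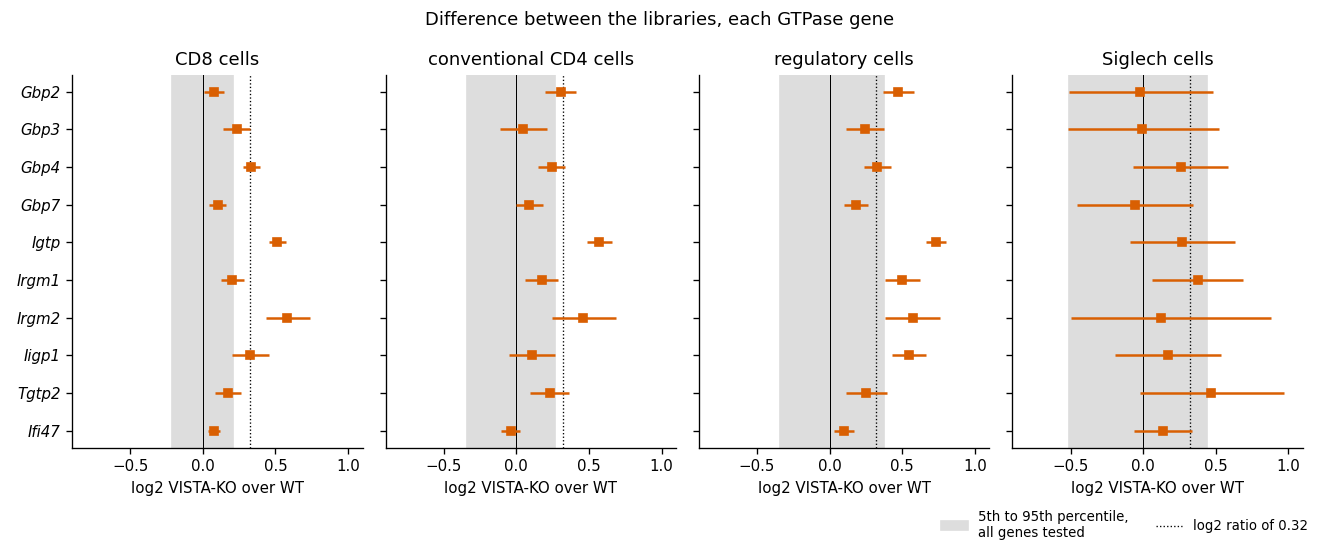
Log2 ratio of VISTA-KO over WT for each GTPase gene in the 4 cell kinds, after adding 5 CPM (squares), with the 95% counting interval on the same scale (lines). The grey band spans the central 90% of all genes tested and the dotted line is the limit of 0.32; Igtp lies to the right of the band in all 3 T cell kinds, and no gene of the 10 lies to its left in any kind.

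Igtp, one of the regulatory immunity-related GTPases, was higher in VISTA-KO in all 3 T cell kinds. Its level was 115 CPM in CD8 cells of WT [112, 118] and 166 in VISTA-KO [161, 171], a ratio of 1.44 [1.39, 1.51]. It was 141 and 212 in conventional CD4 cells, a ratio of 1.504 [1.42, 1.60]. In regulatory cells it was 195 in WT [189, 202] and 328 in VISTA-KO [316, 339], a ratio of 1.68 [1.60, 1.76] and a log2 ratio of 0.73. No interval of WT touched that of VISTA-KO in these kinds, whereas in Siglech cells the levels of 54.3 [45.6, 64.1] and 66.4 [53.7, 81.2] overlapped. More cells held its RNA as well: thinned to 2000 UMIs, 19.4% of CD8 cells of WT and 26.6% of VISTA-KO had an Igtp UMI, and 32.1% and 44.3% of regulatory cells (40.1%, 50.5%, 70.2% and 74.0% without thinning). No cell kind known to lack these genes was in the libraries, so the share that free RNA gives could not be measured.

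Irgm2, which lies next to Igtp on chromosome 11, had about as large a ratio from few molecules. It was at 10.4 CPM in CD8 cells of WT [9.41, 11.5] and 18.1 in VISTA-KO [16.5, 19.7], with 390 and 513 UMIs in all. Conventional CD4 cells had it at 15.8 [13.5, 18.4] and 23.6 [21.3, 26.1], and in regulatory cells at 21.0 [18.9, 23.2] and 33.6 [30.01, 37.4]. By these levels the libraries were apart in each T cell kind. The shares of cells with an Irgm2 UMI, thinned as for Igtp, were apart only in CD8 cells. They were 2.28% in WT [1.90, 2.72] and 4.15% in VISTA-KO [3.57, 4.81] there. The intervals overlapped in conventional CD4 cells, at 3.86% [2.98, 4.91] and 4.46% [3.74, 5.28]. So did those of regulatory cells, at 5.12% [4.06, 6.37] and 6.15% [4.87, 7.65]. In Siglech cells Irgm2 rested on 22 and 14 UMIs, and the levels of 8.59 and 9.79 did not differ beyond counting error.

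Irgm1, which also takes part in autophagy, passed the limit in regulatory and Siglech cells, and not over all CD8 or all conventional CD4 cells. In regulatory cells it was at 65.1 in WT [61.4, 68.9] and 94.2 in VISTA-KO [88.1, 101], a log2 ratio of 0.50. In CD8 cells it was at 66.7 and 77.6, and in conventional CD4 cells at 80.9 and 92.0, with log2 ratios of 0.20 and 0.17. The latter was -0.07 without cells that held Cd8a or Cd8b1, and the former went from 0.11 to 0.31 over the alternatives run. A clonotype is the cells with the same receptor chains, and the largest was taken in each library by itself, with 1034 CD8 cells in WT and 291 in VISTA-KO. In these Irgm1 was at 103 in WT and 80.8 in VISTA-KO. Other clonotypes of at least 2 cells had it at 59.0 and 77.7. Irgm1 was the 1 gene whose counting interval lay above a ratio of 1 in Siglech cells too, with 71.1 in WT and 93.7 in VISTA-KO and a ratio of 1.32 [1.05, 1.66].

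Iigp1, the first of the effector GTPases, was the gene most unevenly spread over the T cell kinds. It was at 18.9 CPM in CD8 cells of WT [17.5, 20.3] and 24.9 in VISTA-KO [23.1, 26.8]. The log2 ratio of 0.325 was barely past the limit and went from 0.15 to 0.42 over the alternatives run. In each library's own largest CD8 clonotype Iigp1 was at 5.80 in WT [3.89, 8.34] and 38.8 in VISTA-KO [31.2, 47.9], on 29 and 88 UMIs. Single clonotypes of at least 30 CD8 cells ran from 0 to 33.7 in WT and from 0 to 51.9 in VISTA-KO. Other clonotypes of at least 2 cells had it at 14.2 and 19.7. Conventional CD4 cells had 39.1 and 42.5, with overlapping intervals. Regulatory cells had 65.2 in WT [61.5, 69.0] and 97.5 in VISTA-KO [91.4, 104]. The order of CD8, conventional CD4 and regulatory cells was thus the same in both libraries, and the regulatory level was 3.46 times the CD8 level in WT [3.15, 3.799] and 3.92 times in VISTA-KO [3.55, 4.33]. Siglech cells lay at 55.5 and 62.9, above CD8 cells in both libraries.

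Tgtp2 stayed under the limit of 0.32 in the T cell kinds and passed it in Siglech cells, on 60 and 49 UMIs. It was at 49.5 and 56.3 in CD8, 55.7 and 66.1 in conventional CD4, 49.0 and 59.4 in regulatory and 23.4 and 34.3 in Siglech cells, WT first. Its neighbour Tgtp1 is a close copy of it, and reads that match both may have been dropped, so either level is uncertain. Ifi47 was at 276 [270, 281] and 291 [284, 297] in CD8 cells, at 288 [278, 298] and 281 [273, 289] in conventional CD4 cells, at 251 [244, 259] and 269 [259, 280] in regulatory cells and at 200 [183, 218] and 220 [197, 246] in Siglech cells. It had the smallest log2 ratio in size among the 10 in each T cell kind, from -0.04 to 0.10.

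The guanylate-binding proteins differed from each other. Gbp4 was at 118 [114, 121] and 150 [145, 154] in CD8 cells, at 125 and 149 in conventional CD4 cells, at 129 and 163 in regulatory cells and at 67.6 and 81.8 in Siglech cells. Gbp2 was nearly level in CD8 cells, with 97.2 [94.1, 100] and 103 [99.1, 107], but apart in conventional CD4 cells, with 95.3 and 119, and in regulatory cells, with 80.2 [76.2, 84.4] and 113 [107, 120]. The Gbp2 gap in CD8 cells is the smallest but for Ifi47. Over the alternatives run its log2 ratio went from -0.02, with each cell weighted equally, to 0.21. In each library's own largest CD8 clonotype Gbp2 was at 162 CPM in WT and 113 in VISTA-KO. Other clonotypes of at least 2 cells had it at 78.2 and 97.3. Gbp3 was at 42.2 and 50.4 in CD8, at 36.6 and 38.0 in conventional CD4 and at 60.8 and 73.0 in regulatory cells. Gbp7 was at 129 and 139, at 127 and 136 and at 163 and 185 in the same order. In Siglech cells Gbp2, Gbp3 and Gbp7 were within counting error of each other between the libraries (28.5 and 28.0, 24.6 and 24.5, 49.6 and 47.5). Guanylate-binding protein genes are alike in sequence, and shared reads between them are uncertain in the same way as for Tgtp2.

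Of the 4 kinds, regulatory cells had the highest sum in both libraries and Siglech cells the lowest. Against conventional CD4 cells of the same library, regulatory cells had 4 genes past the limit of 0.32 in both libraries (Gbp3, Gbp7, Igtp and Iigp1), and none lower, beside 6.97% of genes higher and 6.98% lower. Against CD8 cells they had 5 higher, the same 4 and Irgm2, and none lower, beside 10.7% and 4.71%. CD8 and conventional CD4 cells were close, with Iigp1 alone past the limit in both libraries, lower in CD8 cells beside 8.27% of genes, and no gene higher, beside 3.41%. Their order in VISTA-KO turned when each cell was thinned or weighted equally. Siglech cells were lower than CD8 cells in 7 genes, beside 23.1%, and higher in Iigp1, beside 24.3%. Against conventional CD4 cells 8 genes were lower, beside 24% of genes, and Iigp1 again higher, beside 21.7%. Iigp1 was higher by level only: in thinned cells the intervals of the shares with an Iigp1 UMI overlapped in both comparisons. Igtp and Gbp2 in Siglech cells were at 0.278 and 0.355 times their regulatory level in WT and at 0.203 and 0.247 times in VISTA-KO. Irgm1 and Iigp1 were not among the genes that were lower by this limit in Siglech than in regulatory cells in both libraries, nor was Ifi47, which makes 7 of 10 lower beside 25.6% of genes. Among the 7, Irgm2 met the minimum only in regulatory cells.

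CD8 cells were then grouped by marker UMIs, each cell by the first rule that it met: a UMI of the mitotic genes Mki67 or Top2a, of Havcr2 (TIM3), of Pdcd1 (PD-1), or no marker used for grouping (remaining cells). Single UMIs miss cells, so the groups overlap in what they are. Summed levels in WT were lowest in Mki67 or Top2a cells and Havcr2 cells, at 785 and 815 CPM, and higher in Pdcd1 cells, at 1101, and in the remaining cells, at 1238. The difference between the libraries was not even over these groups. In Havcr2 cells the sum was 815 in WT [784, 848] and 1074 in VISTA-KO [1040, 1109], with 7 of 10 genes higher by the limit of 0.32, beside 5.4% of genes. Pdcd1 cells had 1101 and 1372 with 5 genes higher (beside 4.37%), and Mki67 or Top2a cells 785 and 960 with 4 (beside 4.48%). In the remaining cells the sums were 1238 [1209, 1267] and 1287 [1255, 1320], with Igtp alone higher (beside 4.43%). These shares are over genes with at least 20 CPM in a library. Among the genes counted as higher, Irgm2 was below that in both libraries in Havcr2 cells (8.74 and 17.9) and Mki67 or Top2a cells (7.98 and 15.3). It met it only in VISTA-KO in Pdcd1 cells (11.8 and 25.2). Iigp1 met it only in VISTA-KO in Havcr2 cells (12.6 and 27.8) and Mki67 or Top2a cells (14.8 and 22.4).

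Igtp was higher in VISTA-KO in each of these 4 groups, by log2 ratios of 0.61, 0.60, 0.60 and 0.37 in the order given. Iigp1 reached its widest gap in Havcr2 cells, with 12.6 and 27.8 CPM and a log2 ratio of 0.89, and was 20.2 and 20.9 in the remaining cells. Gbp3, Irgm1 and Tgtp2, which did not pass the limit over all CD8 cells, did so in Havcr2 cells, with log2 ratios of 0.64, 0.60 and 0.35. Ifi47 was lower in VISTA-KO in the remaining cells (363 and 337), by a log2 ratio of -0.10. The shares of the groups also differed: Havcr2 cells were 7.51% of CD8 cells in WT and 11.1% in VISTA-KO, and Pdcd1 cells 27.4% and 21.4%. Among regulatory cells grouped in the same way, Mki67 or Top2a cells were 45.5% in WT and 35.3% in VISTA-KO. The remaining cells were 12.9% and 24.6% of them.

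**Figure D3:**
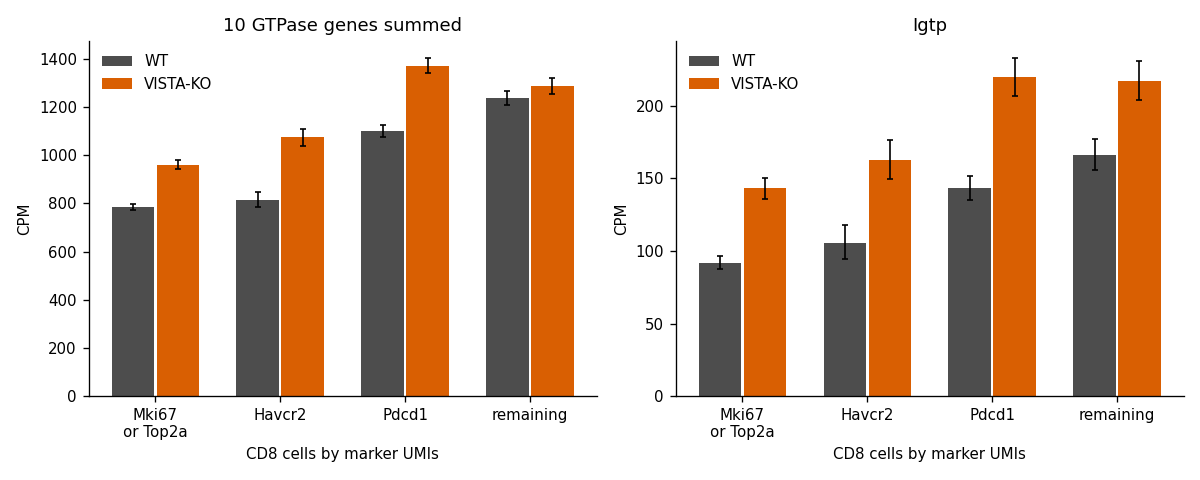
CPM in CD8 cells of WT (grey) and VISTA-KO (orange) grouped by the first rule met, for the 10 GTPase genes summed (left) and Igtp (right); bars start at 0 and error bars are exact 95% Poisson intervals. Of the 4 groups plotted, the sums are farthest apart, as a ratio, in Havcr2 cells (815 and 1074) and closest in the remaining cells (1238 and 1287), and Igtp is higher in VISTA-KO in each of the 4.

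Regulatory cells showed the Igtp gap in each of these groups, with log2 ratios between 0.50 in Pdcd1 cells and 0.66 in Havcr2 cells. In conventional CD4 cells it held in 3 of 4 groups, between 0.42 and 0.67, and was -0.05 in Havcr2 cells, of which there were only 47 and 72. The summed level in the remaining conventional CD4 cells was the same in both libraries, at 1306 in WT and 1307 in VISTA-KO. Single genes went both ways there. Igtp and Irgm2 were higher by the limit, and Iigp1 was lower (55.1 and 40.7, log2 ratio -0.40). In Havcr2 conventional CD4 cells 4 genes were higher and Irgm1 lower (107 and 77.1, log2 ratio -0.45), the latter with a ratio of 0.72 [0.45, 1.15]. The share of all genes past the limit was not computed for these 2 groups.

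The genes shared cells. With CD8 cells thinned to 2000 UMIs, the level of each gene was compared between cells with and without a UMI of each other gene, which gives 90 ordered pairs. In WT all 90 pairs were higher, by a log2 ratio of at least 0.32, in the cells with a UMI, with a median ratio of 1.95, beside 9.14% when all genes are measured in the same way. In VISTA-KO 87 of 90 were, with a median of 1.72, beside 10.8%. The steepest pair was Iigp1 in cells with and without Igtp, with 0.114 and 0.0236 UMIs per cell in WT (a ratio of 4.83) and 0.117 and 0.0337 in VISTA-KO (3.46). The 3 exceptions in VISTA-KO were Tgtp2 with Gbp3 in both orders (0.976 and 1.04) and Irgm2 in cells with Irgm1 (1.24). Conventional CD4 cells gave 86 and 85 pairs (beside 16.7% and 11.6%) and regulatory cells 83 and 74 (beside 15.2% and 16.4%), with lower medians of 1.51 and 1.44 in the latter.

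**Figure D4:**
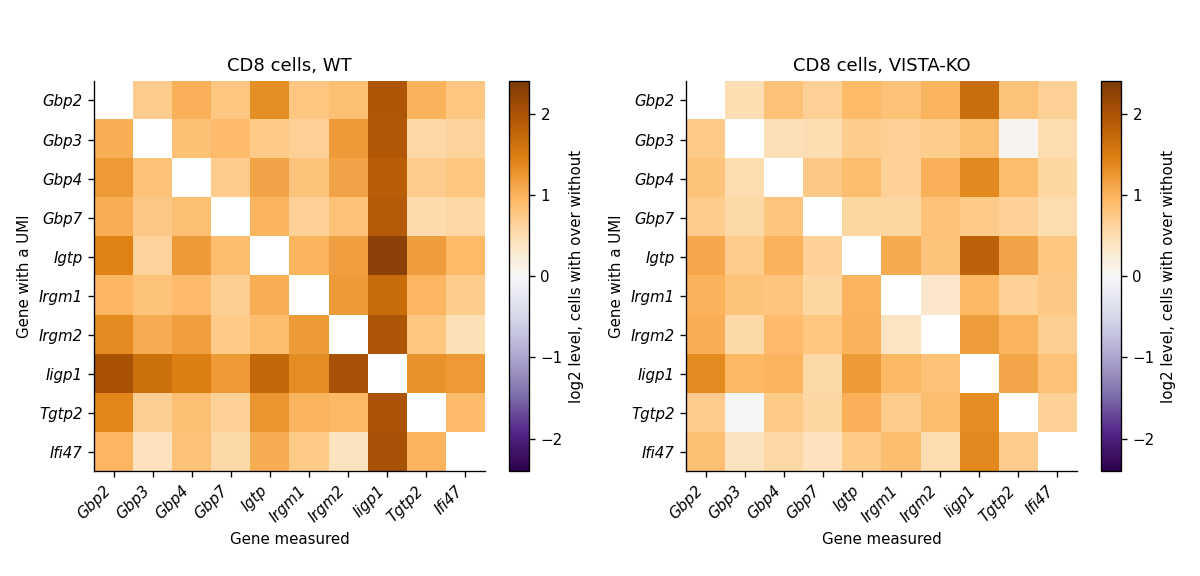
Log2 ratio of each gene's level (columns) in CD8 cells with a UMI of another gene (rows) over cells without, after thinning each cell to 2000 UMIs, in WT (left) and VISTA-KO (right); white squares on the diagonal are not defined. Nearly all squares are orange (higher together), the Iigp1 column is the darkest in WT, and the 1 square below 0 is Gbp3 in cells with Tgtp2 in VISTA-KO (0.976-fold).

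Cells without any UMI of the 10 genes were fewer in VISTA-KO among CD8 cells (20.7% against 24.2%) and regulatory cells (14.1% against 19.8%), and alike among conventional CD4 cells (23.5% in both), all thinned to 2000 UMIs. Cells with at least 5 were more, 14.8% against 10.4% of CD8 cells and 22.9% against 14.2% of regulatory cells. Among Siglech cells 43.8% and 49.5% had none.

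The GTPase RNA was highest in cells that also held type I interferon response RNA. Cells were binned by their UMIs of a list of 22 type I response genes, such as Isg15, Ifit1 and Rsad2, none of them a GTPase of the 10, after thinning each cell to 2000 UMIs. In CD8 cells of WT the sum went from 651 CPM in cells with 0 such UMIs to 806 with 1 to 2, 1125 with 3 to 5 and 2395 with 6 or more. In VISTA-KO the steps were 764, 913, 1352 and 2492. Among cells with none of these UMIs the libraries were apart, with intervals of [620, 684] in WT and [724, 805] in VISTA-KO. Among those with 6 or more the intervals [2312, 2481] and [2399, 2587] overlapped. For conventional CD4 cells it was the lowest bin that was level, with 755 and 736, and the highest that was apart, with 1914 and 2257. In CD8 cells Igtp kept its gap in each bin, with 79.6 and 110 in the lowest and 343 and 418 in the highest. The bins held similar shares of the libraries, 12.3% and 13.1% of CD8 cells in the highest.

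**Figure D5:**
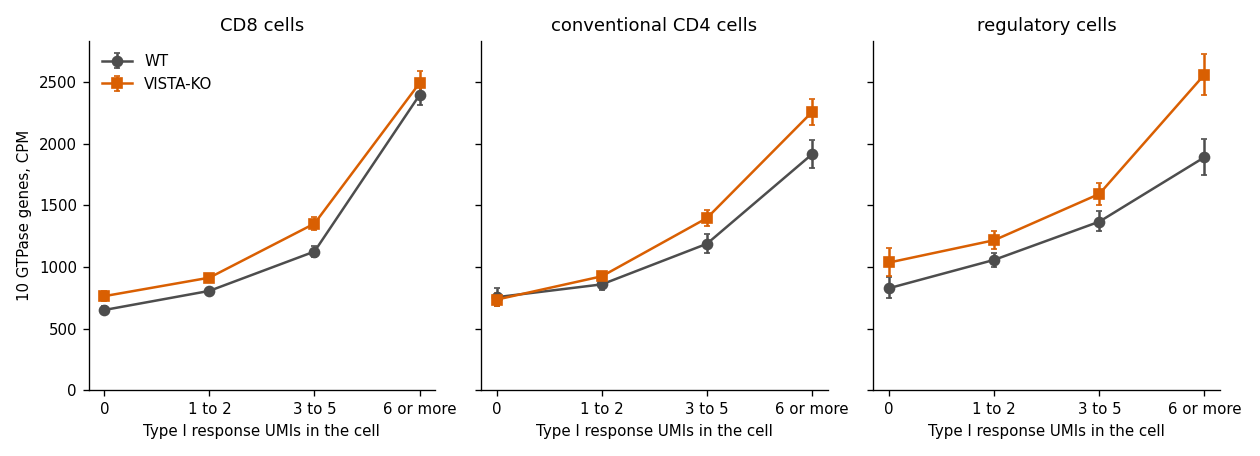
Summed level of the 10 GTPase genes (CPM, axis from 0) in T cells binned by their UMIs of 22 type I response genes, all cells thinned to 2000 UMIs, with exact 95% Poisson intervals; grey is WT and orange VISTA-KO. The level climbs over the bins in both libraries and all 3 kinds, and the bars of the libraries overlap in the highest bin of CD8 cells (2395 and 2492) and the lowest of conventional CD4 cells (755 and 736).

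Cells were also split by UMIs of Ifng, the gene of interferon gamma, again with each cell thinned to 2000 UMIs. Thinning counts each cell alike and leaves out the shallowest, and its sums are not to be set against those over all UMIs. CD8 cells with none and with at least 1 had sums of 1007 and 1096 in WT and 1167 and 1230 in VISTA-KO. Regulatory cells without an Ifng UMI had 1542 in VISTA-KO and 1194 in WT, and those with one 1254 and 1289.

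Clonotypes were read from paired receptor chains. Igtp was at 129 CPM in the largest clonotype of WT and 177 in that of VISTA-KO, at 104 and 164 in other clonotypes of at least 2 cells, at 128 and 165 in clonotypes of 1 cell and at 117 and 168 in cells with no paired receptor. VISTA-KO was higher in each of these 4 classes. Single clonotypes with at least 30 CD8 cells spread more widely than the libraries differed: the sum ran from 423 to 1939 with a median of 976 over 15 clonotypes of WT, and from 395 to 1445 with a median of 997 over 7 of VISTA-KO. The ranges of Igtp overlapped as well, from 36.9 to 338 (median 106) and from 41.6 to 279 (median 166).

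Other interferon-induced GTPases differed from each other in CD8 cells. Of 14 listed, 10 were found by symbol and 5 had at least 20 CPM in a library. Gbp6 (99.1 and 150, log2 ratio 0.57) and Gbp10 (14.2 and 25.6, 0.67) passed the limit of 0.32, beside 2.58% of all genes. Gbp10 met the minimum of 20 CPM only in VISTA-KO, where it was higher. Gbp9 (72.1 and 84.8, 0.22), Gbp8 (54.5 and 61.2, 0.15) and Gbp5 (32.5 and 34.1, 0.06) did not. The list's median log2 ratio was 0.22 in CD8, 0.06 in conventional CD4 and 0.39 in regulatory cells. Gbp6 was at 0.59 and 0.73 in the latter kinds.

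Genes upstream of the GTPases were also counted. Ifng was at 206 CPM in CD8 cells of WT and 328 in VISTA-KO, at 214 and 298 in conventional CD4 cells and at 105 and 99.2 in regulatory cells. The part of Ifng in the GTPase levels was not tested. Of the receptor chains, Ifngr1 was 771 and 655 in CD8 and 954 and 1162 in regulatory cells, and Ifngr2 was 5.29 and 8.41 in CD8 cells. Jak1 was 409 and 376 in CD8 and 379 and 374 in regulatory cells, and Jak2 was level in CD8 (51.4 and 52.6) and apart in regulatory cells (69.9 and 106).

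Irf1 was higher in VISTA-KO in all 3 T cell kinds. It was at 235 and 311 in CD8, 272 and 383 in conventional CD4 and 235 and 393 in regulatory cells, with log2 ratios of 0.39, 0.49 and 0.73. Socs1, which feeds back on the Janus kinases, was at 126 and 146 in CD8 and 121 and 180 in regulatory cells. In all, 3 of 12 tested genes of the interferon gamma pathway were higher by the limit in CD8 cells, Ifng and Irf1 among them, and none lower, with a median log2 ratio of 0.07, beside 2.58% and 1.64% of all genes. Among conventional CD4 cells 4 of 13 were higher and 1 lower (median 0.24), beside 3.68% and 5.63% of all genes. In regulatory cells 5 of 12 were higher and 1 lower (median 0.26), beside 6.45% and 5.64%. Among induced genes that are no GTPases, Cxcl10 (36.4 and 51.0) and Cd274 (41.3 and 56.1, PD-L1) were 2 of 9 past the limit in CD8 cells, beside 2.58%. The median log2 ratio of the 9 was 0.10 there, and Tap1 was at 299.8 and 337. In conventional CD4 cells 1 of 9 was higher, beside 3.68%, and the median was -0.04, as over all genes. Regulatory cells had 2 of 9 higher, beside 6.45%, and a median of 0.20, with Cxcl10 at 39.8 and 104 and Cd274 at 54.7 and 103.

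The type I receptor and factors had a median log2 ratio of 0.20 in CD8, 0.01 in conventional CD4 and 0.34 in regulatory cells. In the same order 1, 0 and 4 of 7 were higher, beside 2.58%, 3.68% and 6.45% of all genes. None was lower, beside 1.64%, 5.63% and 5.64%. Ifnar1, Ifnar2, Stat2 and Irf7 had log2 ratios of 0.23, 0.03, 0.20 and 0.22 in CD8 cells, where Irf9 alone passed the limit (54.7 and 69.9). In conventional CD4 cells Ifnar1 was at 0.31 and Stat2 at -0.27. None of 16 tested type I response genes passed the limit in CD8 cells, beside 2.58% of all genes higher and 1.64% lower. Their median was 0.09, with Rsad2, Isg15 and Rtp4 at 0.28, 0.25 and 0.22. Of the response genes in conventional CD4 cells 5 of 18 were lower in VISTA-KO and none higher, beside 5.63% of all genes that were lower, with a median of -0.18, while the median of the 10 GTPases there was 0.20. Plasmacytoid dendritic cell markers, which include the type I response gene Bst2, were at 1902 in conventional CD4 cells of WT and 1023 in VISTA-KO, and their part in that result was not tested. In regulatory cells 7 of 16 response genes were higher, beside 6.45% of all genes, with a median of 0.30.

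The pattern of the summed GTPases over the 8 groups of cells (4 kinds in each library) was followed most closely by B2m, the shared chain of MHC class I, with a Pearson r of 0.989 on the log2 scale, then by 1300002E11Rik (0.983), Trip11 (0.983), Itpkb (0.983) and D16Ertd472e (0.982), out of 4793 genes with at least 20 CPM in every group. The groups share libraries and some share cells, and the low Siglech groups weigh most, so these are descriptions.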

How the data were processed

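The authors deposited raw counts of UMIs per gene and cell barcode from 1 gene expression library per genotype, and UMI counts per productive receptor contig. Per the methods and the processing notes they used Cell Ranger 5.0.0 with a GRCm38 (mm10) reference. The labels describe both a 3′ kit with feature barcodes and a 5′ kit, and the methods the latter. Cells with at least 600 genes and under 30% mitochondrial UMIs were kept. UMIs were summed per library and cell kind and scaled to CPM, over 1430496 to 37431872 UMIs per group. Kinds are not exclusive: most Siglech cells also meet a T cell rule. Ratios of counts have intervals from the Clopper-Pearson bounds of the split of a gene's UMIs between the groups. Where stated, each cell was thinned without replacement to 2000 UMIs, and shallower cells (290 WT and 186 VISTA-KO of the CD8 cells) were left out. No doublet caller was run. Doublets were kept, with an alternative that left out cells with 2 or more productive beta chains or in the deepest 5% of a library. Cells with the same V genes and junctions in their top alpha and beta contigs by UMIs formed a clonotype. With 1 library per genotype no p-value was computed.

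Named genes were the 10 members, Vsir, the main ligand, receptor and signalling genes, the 3 largest log2 ratios of each list in CD8 cells and the 5 genes most like the summed members. The members, lists and cell rules were chosen with earlier results of these data known. Listed GTPases named Gbp11, Gm12250, Mx1 and Mx2 were not matched by symbol. Protein sequences were not used here. A gene of the lists and a marker group of T cells, which took its cells before the Havcr2 rule, are not reported here. Versions were 3.11.15 for Python, 1.17.1 for scipy, 2.4.6 for numpy, 3.10.9 for matplotlib and 2.3.3 for pandas, and the ratio step was tested on simulated data. Alternatives changed the pseudocount, the low-level filter, the scaling, the weighting and thinning of cells, the filters on cells and kinds, doublets, the largest clonotype and the weights of cell groups. A pair of further ones was chosen after seeing the data: leaving out cells with marker UMIs of another kind, and leaving out cells with 5 or more melanoma or macrophage UMIs.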

Additional observations from a re-analysis of the deposited data

How the results depend on the processing

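Each genotype is 1 pooled library, so no alternative shows the spread between mice, and counting intervals are too narrow for it. No paired analysis was possible because each genotype has 1 library and no test was made. Of 550 log2 ratios of single genes under the alternatives, 28 changed sign: 1 in CD8, 9 in conventional CD4, 0 in regulatory and 18 in Siglech cells. In 3 of these the counting interval over all cells lay above 0: Gbp2 in CD8 cells (-0.018, cells weighted equally), and Irgm1 (-0.069) and Tgtp2 (-0.017) in conventional CD4 cells without cells that held Cd8a or Cd8b1. The others were Gbp3, Gbp7, Iigp1 and Ifi47 in conventional CD4 cells, and Gbp2, Gbp3, Gbp4, Gbp7, Igtp, Irgm2 and Iigp1 in Siglech cells. Igtp stayed past the limit of 0.32 in the 3 T cell kinds under all 15 settings, between 0.46 and 0.56 in CD8, 0.35 and 0.61 in conventional CD4 and 0.49 and 0.74 in regulatory cells. Irgm2 did not, with 0.13 to 0.55 in conventional CD4 and 0.19 to 0.65 in regulatory cells.

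The log2 ratio of the sum between libraries, 0.22 in CD8 cells, moved to 0.25 with median-ratio scaling or without the largest clonotype, 0.17 with cells weighted equally and 0.26 without likely doublets. In conventional CD4 cells (0.20) it was 0.24 with median-ratio scaling, 0.070 with cells weighted equally, 0.089 thinned, 0.16 without Siglech cells, 0.15 without likely doublets, 0.13 averaged over the marker groups, 0.0699 without cells with markers of another kind and 0.15 without cells rich in melanoma or macrophage UMIs. In regulatory cells (0.39) the values in a like order were 0.36 with ribosomal, mitochondrial and receptor genes out of the total, 0.31 with equal weights, 0.32 thinned, 0.43 with at least 2 marker UMIs, 0.32 without doublets, 0.33 averaged over groups and 0.33 without other markers. Siglech cells moved to 0.33 without cells holding Trac or Cd3e.

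The log2 ratio of CD8 over conventional CD4 cells in WT (-0.12) was -0.091 without ribosomal, mitochondrial and receptor genes, -0.090 with equal weights, -0.19 without Siglech cells, -0.19 with 2 marker UMIs, -0.17 without the largest clonotype, -0.30 without other markers and -0.18 without melanoma-rich cells. In VISTA-KO (-0.11) it turned to 0.0067 with equal weights and 0.015 thinned, and was -0.17 with 2 marker UMIs, -0.012 without doublets and -0.15 without other markers. Regulatory over conventional CD4 cells in WT (0.10) was 0.047 without Siglech cells, 0.050 without melanoma-rich cells, 0.034 with 2 marker UMIs and 0.15 without doublets, and in VISTA-KO (0.29) 0.24 without ribosomal, mitochondrial and receptor genes, 0.34 with equal weights or without other markers, 0.36 thinned and 0.32 without doublets. Siglech over conventional CD4 cells in WT (-0.78) was -1.17 with equal weights and thinned, -1.13 without doublets and -1.35 without other markers, and in VISTA-KO (-0.79) -0.98, -0.999, -1.07 and -1.09. The share of cells with a UMI of any of the 10 genes was higher in VISTA-KO by 3.54 points in CD8 and 5.65 in regulatory cells at 2000 UMIs, by 1.56 and 2.75 at 4000, and by 0.604 and 0.201 without thinning. The number of the 10 genes past the limit, 4 in CD8 cells, was 2 with a pseudocount of 20 CPM and averaged over the marker groups, beside 1.71% and 2.54% of all genes. In conventional CD4 cells (2) it was 1 with that pseudocount, with equal weights, thinned and without other markers (beside 2.27%, 3.02%, 4.30% and 3.69%), and in Siglech cells (2) it ran from 0 with that pseudocount (beside 5.50%) to 6 without other markers (beside 14.2%), with 4 thinned (beside 24.3%). The cause of these shifts was not tested.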

Other observations

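The cells of no kind, 1369 in WT and 1264 in VISTA-KO, entered no comparison. In them the 10 GTPase genes summed to 1143 CPM in WT [1115, 1172] and 1303 in VISTA-KO [1274, 1334]. Igtp was at 198 [187, 210] and 279 [266, 293], Gbp2 at 120 [111, 129] and 144 [134, 154], Iigp1 at 50.3 [44.6, 56.7] and 69.1 [62.4, 76.3], Irgm2 at 20.9 [17.3, 25.2] and 25.9 [21.9, 30.4], and Ifi47 at 306 [292, 321] and 280 [267, 295]. Melanoma markers there summed to 93.1 CPM in WT and 1139 in VISTA-KO, and their part in these levels was not tested.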
